A study of Mus musculus with 17 samples.

Results

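The 6 genes studied here direct monocytes and neutrophils out of the marrow and into tissue, and were followed across sorted mouse myeloid cells. They are the receptor genes Ccr2 and Cxcr2, the chemokine genes Ccl7, Cxcl2 and Ppbp, and the prokineticin gene Prok2. They were taken by gene symbol from a table of raw counts, in which all 6 have a row among the 10207 rows with a symbol, and all 6 passed the filter on low counts that left 7518 genes for testing. Cells of 3 groups, all from BALB/c mice and all of batch 1, could be compared by gene. TAM (3 libraries) were tumor-associated macrophages, sorted as CD11b+ Gr1- F4/80+ cells from primary tumors of a size of 1 cm after CD45 enrichment, in mice with a label age of 8 weeks. These mice were females that had received, at that age, 100000 4T1-luc cells, a mouse mammary carcinoma line carrying luciferase, in a mammary fat pad. BMDM_T (4 libraries) came from leg bone marrow under the same 4T1-luc treatment and label age, sorted by a Gr1+ F4/80low gate on CD11b+ cells. BMDM_H (4 libraries) were cells of that gate from untreated mice with a label age of 12 weeks, so tumor and age cannot be told apart between the marrow groups, and the age at harvest of the tumor-bearing mice is not given in the sources used here. Nothing in the labels ties a replicate to a mouse of its own, and p-values therefore reflect the variation among the libraries at hand, part of which may be technical.

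Chemokine receptors of leukocytes are G protein-coupled and carry cells up a gradient of ligand. CCR2 binds the monocyte chemoattractant proteins, among them CCL2 and CCL7, and is needed for classical monocytes to leave the marrow. CXCR2 binds CXC chemokines such as CXCL1, CXCL2 and the platelet chemokine PPBP, and drives release of neutrophils from marrow and their entry into inflamed tissue. PROK2 (prokineticin 2, or Bv8) is a small secreted protein of neutrophils that acts on its own receptors, PROKR1 and PROKR2. It is known for promoting angiogenesis and myeloid cell mobilization in tumors.

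Libraries held 387940 to 3747929 counts over the rows with a symbol. The marrow gate is labelled as monocytes, but 12 neutrophil marker genes (S100a8, S100a9, Ngp and others) summed to 138900 to 212900 CPM (counts scaled to a common library size with TMM factors) in the 8 marrow libraries. The 8 monocyte markers other than Ccr2 summed to 1464 to 3803 CPM there. In TAM, 9 macrophage markers summed to 58860 to 72910 CPM and the neutrophil markers to 391 to 612 CPM. The marrow groups are therefore called by their gate below. In these bulk samples, fewer cells of a type and less RNA per cell cannot be told apart.

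The 2 receptor genes had their highest levels in marrow, Ccl7 and Cxcl2 in TAM, and Prok2 in the marrow of tumor-bearing mice. Ppbp was at a few counts in most libraries.

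**Figure D1:**
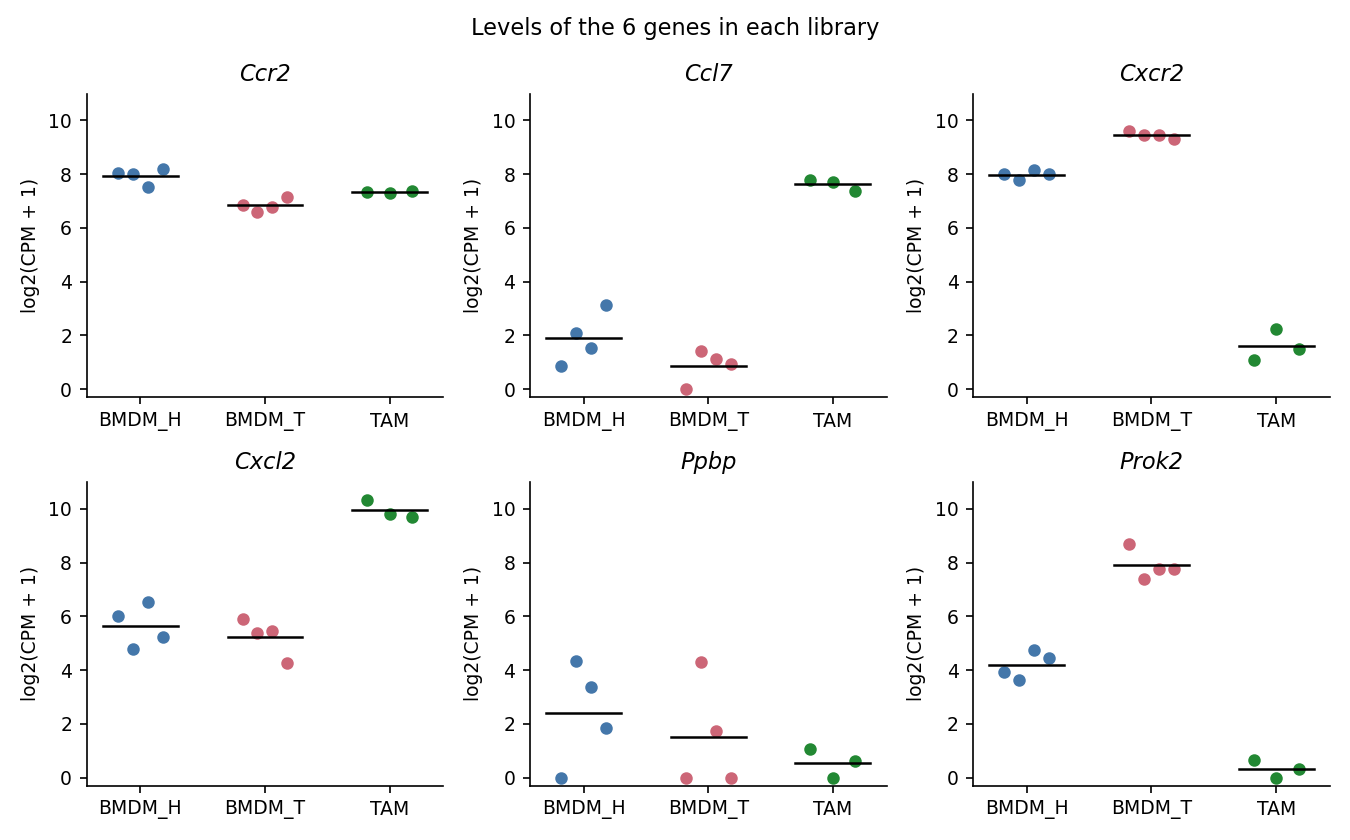
Each point is 1 library, the y axis is log2(CPM + 1), and black lines are the means of these values for BMDM_H (n = 4), BMDM_T (n = 4) and TAM (n = 3). Ccl7 and Cxcl2 sit highest in TAM, Cxcr2 and Prok2 are highest in BMDM_T, and 1 BMDM_T library stands apart for Ppbp.

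The promoters of 4 of these genes are shown because their transcripts moved in different directions between the groups. They are RefSeq windows of GRCm38.p6, from 250 bases before to 50 after the start, and 5 of the 6 genes matched an entry by symbol (Ccl7 did not). Capitals mark matches, on either strand, to 7 short motifs. The NF-kB motif was GGG followed by any 2 bases, 3 T and 2 C. The E-box was searched as CACGTG. The AP-1 motif was searched as TGANTCA. The C/EBP motif was searched as TTGCNNAA. The GATA motif was AGATAA. For PU.1 it was GAGGAA, and for the TATA box TATAAA. The motifs were chosen after the sequences had been read, and 0 of the 12 matches in the 5 windows overlap. A match is a description of the letters only.
Cxcl2 (chr5:90903649-90903948, plus strand): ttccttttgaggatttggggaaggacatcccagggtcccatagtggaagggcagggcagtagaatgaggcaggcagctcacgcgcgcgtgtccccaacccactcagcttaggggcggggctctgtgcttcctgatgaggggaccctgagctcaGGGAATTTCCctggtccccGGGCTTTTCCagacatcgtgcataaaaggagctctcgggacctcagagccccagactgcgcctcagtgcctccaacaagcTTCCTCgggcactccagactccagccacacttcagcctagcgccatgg
Prok2 (chr6:99726343-99726642, minus strand): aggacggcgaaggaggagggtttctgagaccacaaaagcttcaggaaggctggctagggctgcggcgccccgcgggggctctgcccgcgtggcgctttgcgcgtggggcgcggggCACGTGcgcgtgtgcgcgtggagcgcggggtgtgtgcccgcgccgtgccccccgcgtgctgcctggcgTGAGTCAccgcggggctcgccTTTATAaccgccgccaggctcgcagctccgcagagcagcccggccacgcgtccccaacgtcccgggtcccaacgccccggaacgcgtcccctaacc
Cxcr2 (chr1:74153744-74154043, plus strand): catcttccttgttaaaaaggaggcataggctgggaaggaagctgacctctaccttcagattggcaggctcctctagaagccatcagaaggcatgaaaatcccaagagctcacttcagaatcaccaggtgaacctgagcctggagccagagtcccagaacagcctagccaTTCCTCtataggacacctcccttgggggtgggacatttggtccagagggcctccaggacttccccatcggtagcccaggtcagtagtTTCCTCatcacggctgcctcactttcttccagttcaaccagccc
Ccr2 (chr9:124101933-124102232, plus strand): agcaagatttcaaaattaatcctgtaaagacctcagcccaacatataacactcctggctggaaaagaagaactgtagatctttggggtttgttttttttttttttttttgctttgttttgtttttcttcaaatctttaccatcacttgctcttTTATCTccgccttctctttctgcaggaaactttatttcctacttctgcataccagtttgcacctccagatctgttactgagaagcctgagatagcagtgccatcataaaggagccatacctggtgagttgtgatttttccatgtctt
The Cxcl2 window holds 2 NF-kB matches, GGGAATTTCC and GGGCTTTTCC, at -97 and -78 from the start, a motif that 1.61% of all 32544 promoter windows hold at least once. It also holds a PU.1 match, TTCCTC, at 3 from the start (28.1% of windows). Prok2 holds an E-box match at -135 (7.17% of windows), an AP-1 match at -67 (7.79%) and a TATA match at -46 (13.6%). Cxcr2 holds 2 PU.1 matches (28.1% of windows), and Ccr2 holds 1 GATA match (11.2%). The start used for the Ccr2 window differs from the GENCODE M21 start of the gene, 124101950. Most of that window, with its GATA match, lies after the GENCODE start.

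BMDM_T against BMDM_H compares the same marrow gate in mice with and without a tumor. The 2 receptor genes moved in opposite directions: Cxcr2 rose 2.78-fold and Ccr2 fell 2.15-fold in tumor-bearing mice, while Prok2 rose 15.4-fold. Of the 6 genes 2 were higher, 1 was lower and 3 did not pass at an adjusted p under 0.05 (edgeR quasi-likelihood test, Benjamini-Hochberg), where 4.82% of all genes tested were called, 2.82% higher and 2.00% lower. The libraries of the 2 groups did not overlap for those 3 genes, as for 11.2% of all genes.

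Cxcr2, the receptor of neutrophil-attracting CXC chemokines, had 771, 705, 695 and 635 CPM in BMDM_T replicates 1 to 4. In BMDM_H replicates 1 to 4 it had 253, 217, 285 and 258 CPM. Every BMDM_T library was above every BMDM_H library, with 602 to 839 counts behind each BMDM_T value and 99 to 318 behind each BMDM_H value. The log2 fold change was 1.48 ± 0.16 (SE, adjusted p = 9e-06), and it lay between 1.37 and 1.58 in 21 alternative analyses, all of which called it.

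Ccr2, the receptor of classical monocytes, moved the other way. BMDM_T libraries had 114, 94.97, 109 and 142 CPM, and BMDM_H libraries 261, 258, 180 and 289 CPM. The lowest BMDM_H library, replicate 3, was still above the highest BMDM_T library, replicate 4. The log2 fold change was -1.11 ± 0.17 (SE, adjusted p = 0.000367), with a range of -1.41 to -1.0 over the same 21 alternatives, and all of them called it.

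**Figure D2:**
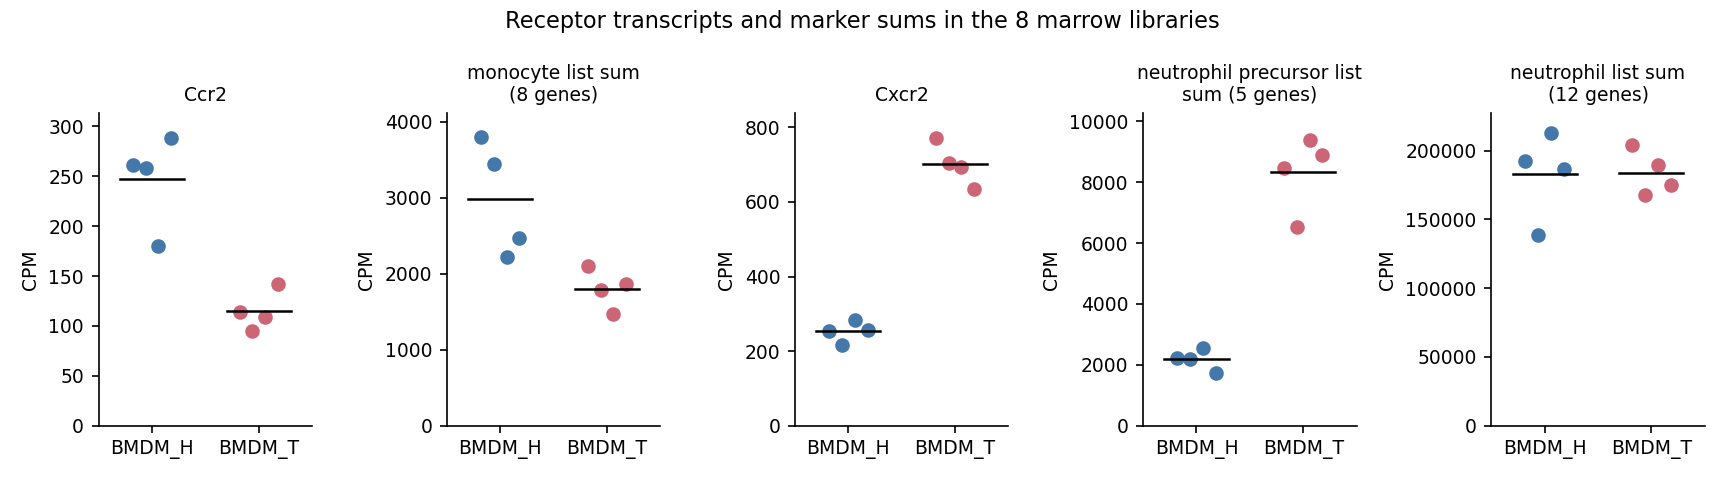
Points are the 4 libraries of each marrow group, lines are means and the y axes are CPM from 0. Ccr2 and the monocyte marker sum were both lower in BMDM_T, while Cxcr2 and the neutrophil precursor sum were higher in BMDM_T and the neutrophil marker sum overlapped between the groups.

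Marker lists moved with both receptors, in a comparison that called 2.82% of all genes higher and 2.00% lower. The monocyte sum was 1464 to 2097 CPM in BMDM_T and 2224 to 3803 CPM in BMDM_H, and 6 of the 9 monocyte genes tested (Ccr2 among them) fell, 0 rose and 3 did not pass. Ccr2 amounted to 6.45 ± 1.23% of that sum in BMDM_T and 8.55 ± 2.18% in BMDM_H (SD, n = 4 each), ranges that overlapped. The 12-gene neutrophil sum was 184000 ± 15860 CPM in BMDM_T and 182800 ± 31310 CPM in BMDM_H. Of its genes 3 rose with Cxcr2, 0 fell and 9 did not pass, and the 3 were Mmp9 (log2 fold change 1.15 ± 0.26 SE), Csf3r (0.83 ± 0.23) and Cd177 (0.53 ± 0.15). Relative to it, Cxcr2 stood at 0.363 to 0.419% in BMDM_T and 0.131 to 0.156% in BMDM_H, without overlap. The sum of 5 neutrophil precursor genes (Mpo, Elane, Prtn3, Ctsg and Ms4a3) was 8322 ± 1256 CPM in BMDM_T and 2179 ± 333 CPM in BMDM_H, and all 5 rose. Cxcr2 was 7.15 to 10.8% of this sum in BMDM_T and 9.86 to 14.8% in BMDM_H. The part that the make-up of the sorted cells has in the receptor changes was not tested beyond these values.

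Prok2, the gene of a secreted neutrophil protein of the prokineticin family, showed the largest fold change between the marrow groups among the 6 genes. BMDM_T libraries held 411, 166, 217 and 218 CPM, and BMDM_H libraries 14.3, 11.3, 26.0 and 20.8 CPM. BMDM_T replicate 1 was the highest library, and the remaining 3 were also above all BMDM_H libraries. The log2 fold change was 3.94 ± 0.31 (SE, adjusted p = 7.15e-08), and between 3.62 and 4.29 in the 21 alternatives. The neutrophil precursor sum was also higher in BMDM_T (8322 against 2179 CPM), while the 12-gene neutrophil sum was alike (184000 against 182800 CPM). The part of cell make-up in the Prok2 change was not tested. Its known receptors could not be followed, since Prok2 is the only gene with a row among the 4 listed for the prokineticin system.

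The 3 other ligand genes did not pass in marrow. Cxcl2 averaged 40.0 ± 16.5 CPM in BMDM_T, beside 54.4 ± 29.1 CPM in BMDM_H (SD, n = 4 each), with overlapping libraries (log2 difference -0.43 ± 0.34 SE, adjusted p = 0.58). Ccl7 had 4 counts over the BMDM_T libraries and 9 over BMDM_H, a ratio of 0.372 with a 95% exact counting interval of 0.0836 to 1.33 that covers counting error only. No difference in marrow Ccl7 was detected. Ppbp had 24 and 30 counts in total, of which 22 came from BMDM_T replicate 2 and 24 from BMDM_H replicate 2.

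Within tumor-bearing mice, macrophages of the tumor were set against the marrow gate (TAM against BMDM_T). Ccl7 and Cxcl2 rose 185-fold and 25.3-fold in TAM, Cxcr2 and Prok2 were at a few counts there, and Ccr2 rose 1.39-fold. All 6 genes were called, 3 higher and 3 lower, in a comparison that called 58.9% of all genes (30.1% higher, 28.7% lower). Libraries of the groups did not overlap for 5 of the 6, as for 58.1% of all genes. Calls were thus common in this comparison, and the sizes of the changes say more about these genes than their count. TAM against BMDM_H shares the TAM libraries, called 56.3% of genes (28.0% higher, 28.3% lower), and called all 6 genes, 2 higher and 4 lower, with Ccr2 among the lower. Libraries again did not overlap for 5 of the 6, as for 53.8% of all genes.

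**Figure D3:**
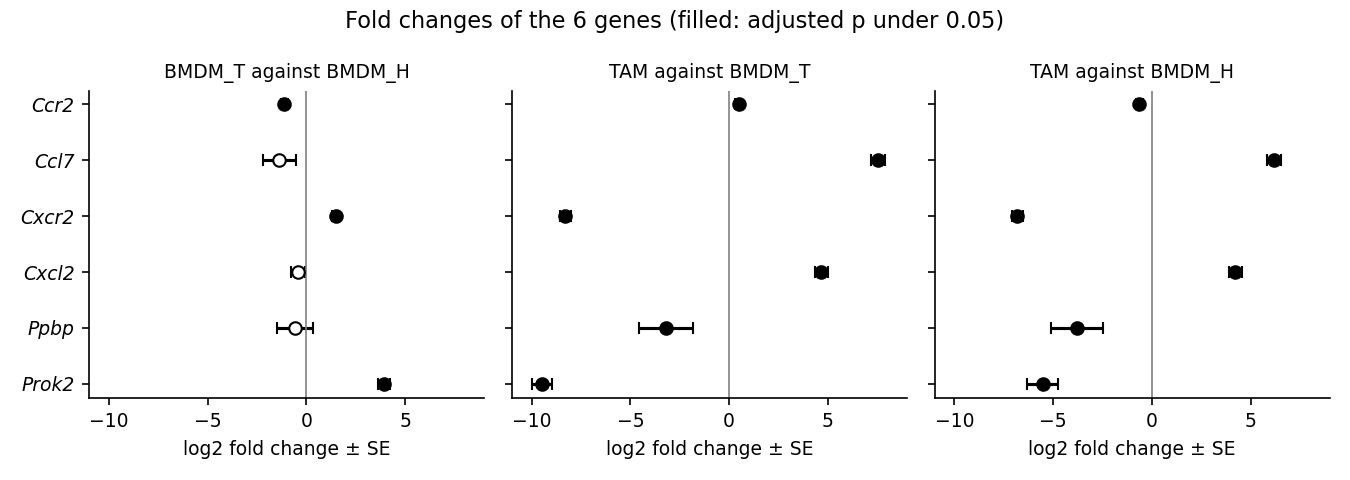
Points are log2 fold changes with their SE for the 6 genes, 1 panel per comparison, filled where the adjusted p was under 0.05. Prok2 and Cxcr2 lie farthest to the left in TAM against BMDM_T, Ccl7 and Cxcl2 farthest to the right, and Ccr2 close to 0.

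Ccl7, a CC chemokine that binds CCR2 and other CC receptors, had 221, 210 and 164 CPM in TAM replicates 1 to 3. BMDM_T replicates 1 to 4 held 0, 2, 1 and 1 counts and BMDM_H replicates 1, 4, 1 and 3 counts. TAM thus lay far above every marrow library, where the gene was at the edge of detection. The log2 fold change was 7.53 ± 0.37 (SE, adjusted p = 8.45e-13) against BMDM_T and 6.17 ± 0.34 (adjusted p = 4.86e-12) against BMDM_H. As a ratio of summed counts, TAM stood 193-fold above BMDM_T, with a 95% exact counting interval of 75.4 to 711.

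Cxcl2, a CXCR2 ligand made by activated macrophages, had 1284, 900 and 827 CPM in TAM. Marrow libraries had 18.04 to 58.1 CPM in BMDM_T and 26.5 to 91.1 CPM in BMDM_H. The lowest TAM library was well above the highest marrow library, and replicate 1 was the highest of the TAM libraries. Log2 fold changes were 4.66 ± 0.33 (SE, adjusted p = 2.22e-10) against BMDM_T and 4.23 ± 0.33 (adjusted p = 1.09e-09) against BMDM_H.

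Most immediate early and stress genes, which tissue digestion is known to raise, moved with these ligands. Their 16-gene sum was 11270 to 12050 CPM in TAM and 4247 to 7258 CPM in the marrow libraries. Of 15 tested 11 rose and 2 fell in TAM against BMDM_T, where 30.1% of all genes rose and 28.7% fell. Per the labels' protocols, collagenase released the cells of tumors but not those of marrow, which was flushed from the bones. The part of digestion in the ligand levels was not tested. Transcripts of 4 fibroblast genes summed to 8.79 to 26.5 CPM in TAM, 1.68 to 14.4 CPM in BMDM_T and 1.86 to 44.2 CPM in BMDM_H. Those of 6 epithelial genes, which tumor cells could bring, summed to 63.9 to 102 CPM in TAM and 11.8 to 57.7 CPM in marrow, with 0 of the 6 at 0 counts. Endothelial genes (2 with a row) summed to 56.8 to 89.5 CPM in TAM and 5.21 to 33.6 CPM in marrow. The part of such cells in the ligand levels was not tested.

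Cxcr2 was nearly lost from TAM, with 2, 7 and 7 counts, or 1.11, 3.71 and 1.81 CPM. That compares with 635 to 771 CPM in BMDM_T, a 315-fold difference (log2 fold change -8.30 ± 0.28 SE, adjusted p = 1.16e-14), and 113-fold against BMDM_H. The neutrophil marker sum was 168100 to 203800 CPM in BMDM_T but 391 to 612 CPM in TAM. All 12 tested neutrophil markers were lower, as were 28.7% of all genes tested. Gr1+ cells were left out of the TAM sort and required in the marrow sort, and the part of the gates in this difference was not tested.

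Prok2 had 1, 0 and 1 counts in the TAM libraries. Against the 1009 counts of BMDM_T this was 931-fold lower (95% exact counting interval 257 to 7700), and against the 54 counts of BMDM_H 59.6-fold lower (15.7 to 505). The highest Prok2 levels were thus in the marrow gate of tumor-bearing mice and the lowest in tumor macrophages, with BMDM_H between them and no overlap of libraries in any of the 3 pairs of groups. As for Cxcr2, the TAM sort left out Gr1+ cells, and the neutrophil marker sum there was 391 to 612 CPM, against 168100 to 203800 CPM in BMDM_T. The part of the gates in the Prok2 difference was not tested.

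Ccr2 was measured in all libraries of TAM, with 159, 157 and 165 CPM, between the levels of the marrow groups. It was called higher than in BMDM_T (log2 fold change 0.48 ± 0.17 SE, adjusted p = 0.0236) and lower than in BMDM_H (-0.63 ± 0.17, adjusted p = 0.00474). The order BMDM_H, TAM, BMDM_T held without overlap of libraries. The step from BMDM_T to TAM was unstable, since 13 of 21 alternatives called it. Leaving out BMDM_T replicate 1, 2 or 3 or TAM replicate 1, 2 or 3 gave adjusted p-values of 0.0526, 0.0808, 0.0678, 0.0508, 0.057 and 0.0688. Of the 9 monocyte genes tested, 7 (Ccr2 among them) rose in TAM against BMDM_T and 2 fell, beside 30.1% and 28.7% of all genes. Those that rose include Csf1r (log2 fold change 2.81 ± 0.19 SE), Fn1 (2.80 ± 0.24) and Klf4 (3.08 ± 0.19). The 2 that fell were F13a1 (-1.59 ± 0.33) and Ly6c2 (-7.12 ± 0.34), an antigen that the Gr1 stain can bind.

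Ppbp, a chemokine stored in platelet granules, had 2, 0 and 2 counts in TAM and passed as lower against BMDM_T (log2 fold change -3.21 ± 1.37 SE, adjusted p = 0.0381) and against BMDM_H (-3.80 ± 1.31, adjusted p = 0.0135). Both calls rest on few libraries. DESeq2 gave adjusted p-values of 0.181 and 0.112 and limma-voom 0.354 and 0.132, and without BMDM_T replicate 2, BMDM_H replicate 2 or BMDM_H replicate 3 the gene fell below the count filter. The call against BMDM_T was also lost without TAM replicate 2 (0.0863) or TAM replicate 3 (0.0969). By library Ppbp had 0, 18.5, 2.31 and 0 CPM in BMDM_T, and the BMDM_H libraries 0, 19.3, 9.30 and 2.60 CPM. The 11 platelet and megakaryocyte genes with a row summed to 145, 363, 365 and 258 CPM in BMDM_H replicates 1 to 4. Replicates 2 and 3, the 2 highest for Ppbp, were the 2 highest for 6 of these 11 genes. These were Pf4, Gp9, Gp1bb, Gp5, Itgb3 and Rap1b, and Itga2b and Clec1b were not among them. Rap1b alone had 47.8, 152.8, 154.3 and 88.5 CPM of the sums, and Itgb3 differed little (50.1, 58.7, 57.7 and 57.3 CPM). The share of all genes with this order was not determined. Replicates 2 and 3 were also highest for the B cell sum (121, 275.9, 310.6 and 190 CPM). The same held for the eosinophil, basophil and mast cell sum (366.9, 452, 593.2 and 291.5 CPM). It did not hold for the monocyte sum (3803, 3448, 2224 and 2464 CPM). In BMDM_T the platelet and megakaryocyte sum was 134, 234, 214 and 213 CPM, with replicate 2 the highest. In TAM the sum was higher, at 526 to 1043 CPM, and Pf4 and Rap1b, which macrophages can express, held 3945 and 1352 of its counts. Of 5 tested, 1 (Pf4) rose and 3 (Itga2b, Gp1bb and Itgb3) fell in TAM against BMDM_T, beside 30.1% and 28.7% of all genes. Gp9, Gp1bb and Gp1ba had 1, 3 and 0 counts over the TAM libraries, and Vwf and Treml1 had 36 and 13. The part of platelets in the Ppbp values was not tested.

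The remaining CCR2 ligands followed Ccl7. All 4 listed (Ccl2, Ccl7, Ccl8 and Ccl12) rose in TAM against BMDM_T and against BMDM_H, where 30.1% and 28.0% of all genes rose. Their median log2 fold change was 6.66 and 6.23, beside 0.03 and 0.02 over all genes tested. Ccl2, the main monocyte attractant, had 188, 146 and 161 CPM in TAM and 2.89 ± 1.78 CPM in BMDM_T (54.6-fold). Ccl12 had 218, 203 and 238 CPM (96.4-fold), and Ccl8 123, 173 and 348 CPM (107-fold). The TAM replicates were close for Ccl12 and farther apart for Ccl8, whose highest library was replicate 3, the lowest for Ccl7. In marrow, 0 of these 4 genes passed in BMDM_T against BMDM_H with edgeR, DESeq2 or limma-voom, and 1 (Ccl2, -1.49 ± 0.51) had an unadjusted p under 0.05 in edgeR. Of all genes tested, edgeR called 4.82% there. Over 20 alternatives the adjusted p of Ccl2 ran from 0.0205 to 0.462, and 1 of them called it.

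Among CXCR2 ligands 4 of the 6 listed had a row and 3 were tested. Cxcl1, a close relative of Cxcl2, had 133, 79.0 and 79.4 CPM in TAM and rose 12.5-fold against BMDM_T (log2 fold change 3.65 ± 0.47 SE, adjusted p = 1.22e-06). Its levels in marrow were 7.97 ± 8.90 CPM in BMDM_T and 13.0 ± 5.76 CPM in BMDM_H. Cxcl3 did not reach the filter, with 60, 9 and 26 counts in TAM and 0 in all BMDM_T libraries, which puts TAM at least 17.2-fold higher when BMDM_T is set to 3 counts in total, and at least 8.3-fold without TAM replicate 1. For Cxcl1, Cxcl2 and Cxcl3 alike, TAM replicate 1 had the highest CPM of the TAM libraries. In BMDM_T against BMDM_H, 0 of the 3 tested CXCR2 ligands passed with edgeR, DESeq2 or limma-voom, and 0 had an unadjusted p under 0.05. Of all genes tested, edgeR called 4.82% there.

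**Figure D4:**
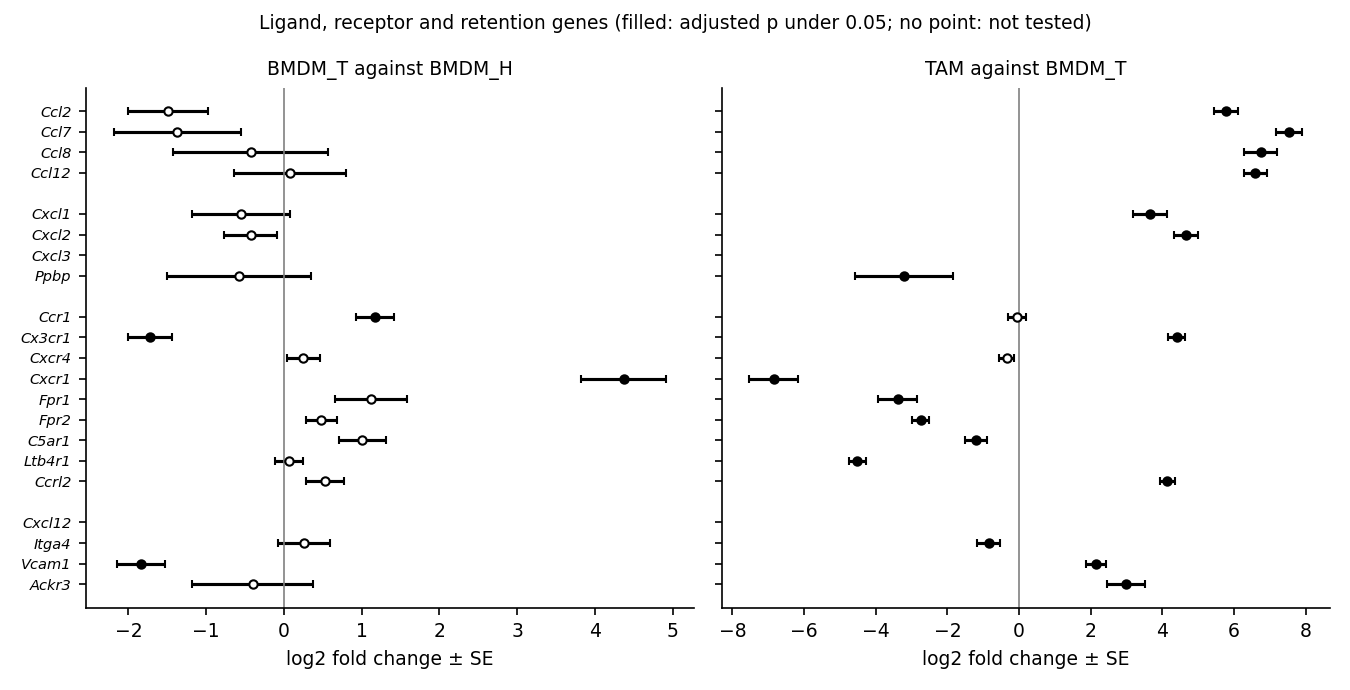
Log2 fold changes with SE for CCR2 ligands, CXCR2 ligands, other chemotactic receptors (9 of the 10 tested) and retention genes, from top to bottom, in 2 comparisons with separate x axes. In marrow Cxcr1 and Ccr1 are the filled points to the right, whereas in TAM the CCR2 ligands, Cxcl1, Cxcl2, Cx3cr1 and Ccrl2 lie to the right and the neutrophil receptors to the left.

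Other chemotactic receptors of myeloid cells numbered 10 with a row, all tested. In BMDM_T against BMDM_H 2 rose, 1 fell and 7 did not pass (median 0.51, all genes -0.01), where 2.82% of all genes rose and 2.00% fell. Cxcr1, which lies beside Cxcr2 in the genome and binds related chemokines, had 25, 42, 20 and 20 counts in BMDM_T and 2, 1, 0 and 1 in BMDM_H (log2 fold change 4.37 ± 0.55 SE, adjusted p = 3.01e-05). Ccr1, a receptor for inflammatory CC chemokines, rose by 1.17 ± 0.24 (adjusted p = 0.00633). Cx3cr1, the fractalkine receptor of patrolling monocytes, went from 34.4 CPM to 10.03 CPM (log2 fold change -1.72 ± 0.28, adjusted p = 0.00074) and so moved with Ccr2. With the replicate numbers as a block 5 of the 10 rose, as Fpr1, Fpr2 and C5ar1 passed as well (adjusted p = 0.0418, 0.035 and 0.00395). Without BMDM_H replicates 3 and 4 together, 1 of the 10 rose. Over all genes the block gave 468 calls and the fit without these libraries 179, against 362 in the main fit.

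In TAM against BMDM_T 3 of these receptors rose, 5 fell and 2 did not pass, where 58.9% of all genes were called. Cx3cr1 rose by 4.40 ± 0.24 and Ccrl2, which binds chemerin and does not signal as a classical chemokine receptor, by 4.14 ± 0.22, to 930 CPM. The receptors that fell were Cxcr1, Fpr1, Fpr2, Ltb4r1 and C5ar1, which serve neutrophil chemotaxis. Cxcr1 had 1 count over the TAM libraries, 197-fold lower than BMDM_T (34.7 to 7870), and Ltb4r1, the leukotriene B4 receptor, fell by 4.52 on the log2 scale (SE 0.24). Cxcr4 (152 against 192 CPM, adjusted p = 0.178) and Ccr1 (165 against 171 CPM, adjusted p = 0.852) did not pass.

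Genes listed for chemoattractant receptor signalling numbered 27 tested. The list also holds adhesion and cytoskeleton genes such as Itgb2 and Myo1f, and the counts below include them. Between the marrow groups 2 rose, 1 fell and 24 did not pass, beside 4.82% of all genes called, with 6 at an unadjusted p under 0.05. The Src family kinase gene Fgr (log2 fold change 0.69 ± 0.17 SE) was among those that rose. Without BMDM_H replicates 3 and 4, 0 of the 27 passed, and calls over all genes fell to 179 from 362. In TAM against BMDM_T 16 fell and 3 rose, where 28.7% of all genes fell and 30.1% rose (median -1.02, all genes 0.03). Rac2, the GTPase of neutrophil migration, fell by 4.03 on the log2 scale (SE 0.20), from 210 to 12.8 CPM, and Fgr by 2.92 (SE 0.20). The receptor kinases Grk6 and Adrbk1, which desensitize chemokine receptors, fell by 2.14 and 1.86 (SE 0.19 and 0.20). Gnai2, the inhibitory G protein subunit used by both CCR2 and CXCR2, fell by 1.13 (SE 0.20), to 2156 CPM, and Rac1 did not pass (388 against 319 CPM, adjusted p = 0.227).

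Position in the genome set some of these genes side by side (GENCODE M21, GRCm38). Cxcl2 (chromosome 5, 90903871 to 90905938, plus strand) and Ppbp (90768518 to 90770063, plus strand) belong to the same CXC cluster. Ccl7 (chromosome 11, 82045712 to 82047525, plus strand) starts 10.1 kb after Ccl2, with Ccl12 and Ccl8 starting 56.1 and 69.5 kb further on. Ccr2 (chromosome 9, 124101950 to 124113557, plus strand), Cxcr2 (chromosome 1, 74153989 to 74161246, plus strand) and Prok2 (chromosome 6, 99711299 to 99726392, minus strand) lie elsewhere. All 6 are protein-coding.

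Neighbors within 100 kb did not all move together. Around Ccl7 the 3 tested neighbors rose with it in TAM against BMDM_T, where 30.1% of all genes rose. They are Ccl2, Ccl12 and Ccl8, already counted above as CCR2 ligands. Pf4, the platelet factor 4 gene, starts 3.9 kb after Ppbp and rose 3.88 ± 0.37 on the log2 scale in TAM against BMDM_T, with 883, 460 and 385 CPM in TAM and 24.2 to 52.1 CPM in BMDM_T, while Ppbp had 4 counts over the TAM libraries. Reads that Ccr2, Cxcr2 or the Ccl and Cxcl genes share with close relatives could have been split or dropped in counting, and how this was handled is not given in the sources used here.

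**Figure D5:**
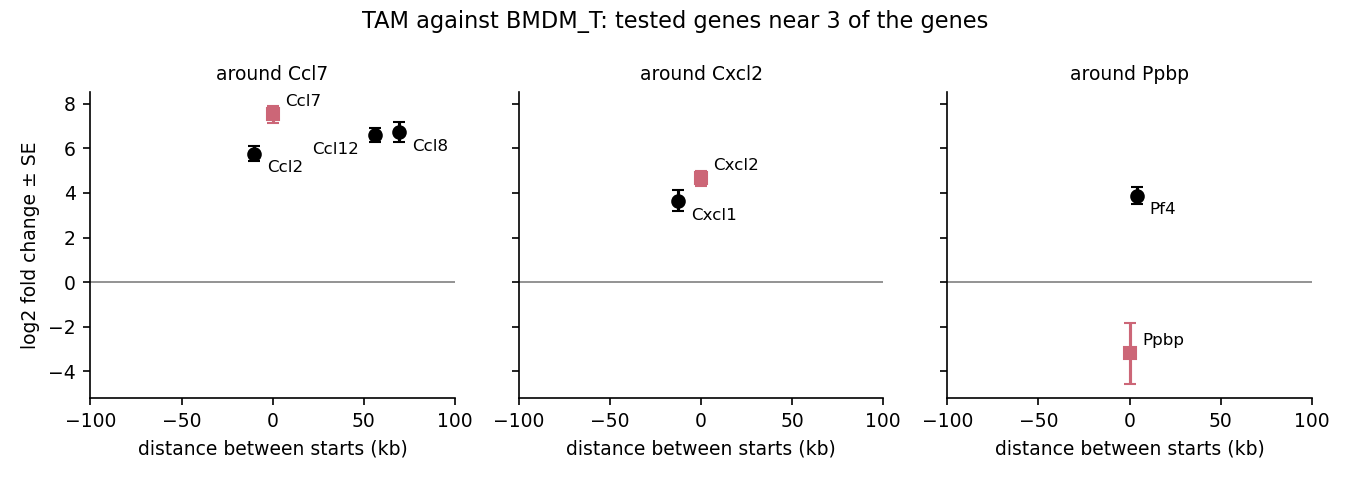
Log2 fold changes with SE of TAM against BMDM_T for Ccl7, Cxcl2 and Ppbp (squares at 0) and their tested protein-coding neighbors (circles), by distance between gene starts in kb. Ccl2, Ccl12 and Ccl8 lie near Ccl7, whereas Pf4 and Ppbp lie on opposite sides of 0.

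Likeness over the 11 libraries was described by the root mean square difference of log2 CPM after centring each gene, without a test. Closest to Cxcr2 were Elane (0.22), a neutrophil elastase gene of precursor granules, and Ifitm6 (0.287), with Asprv1 next at 0.385. For Ccl7 they were Cd83 (0.299), an activation marker, the complement gene C1qc (0.354) and the protease gene Htra3 (0.404). Cxcl2 was nearest to Wtip (0.431), the lipopolysaccharide co-receptor gene Cd14 (0.477) and Slamf8 (0.5). Prok2 had Ggt1 (0.51) and Stfa3 (0.727) as its nearest genes, both higher in BMDM_T (123 and 130 CPM) than in BMDM_H (7.27 and 8.82 CPM) and below 1 CPM in TAM. Steap4 came next at 0.937, with 281 CPM in BMDM_T, 22.9 CPM in BMDM_H and 1.42 CPM in TAM. Ccr2, with its small changes, was nearest to Pdcd6ip, Ppil3 and Esf1 (0.269 to 0.274), and for Ppbp the nearest gene was at 0.913.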

How the data were processed

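RNA was measured in 17 libraries by 3' end mRNA sequencing with a sample barcode and a molecular identifier, per the labels' protocols. The deposited values are raw counts per gene. Per the submitters' processing notes, the authors used bcl2fastq, STAR 2.4.2a and HTSeq with build mm10. For collapsing of identifiers, annotation and strand the sources used here give no setting. Symbols fill 10207 of 24421 rows, and the 11 batch 1 libraries have counts in those rows alone. The 6 batch 2 libraries (BMDM_H replicates 5 to 8 and both mammary gland macrophage libraries) are in another row order, with Spearman correlations to batch 1 of -0.02 to 0.0 in 66 pairs, against 0.92 to 0.96 within batch 1 BMDM_H. They were not used by gene.

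The 11 batch 1 libraries were fitted together in edgeR 4.0.16 (R 4.3.3) after filterByExpr and TMM scaling (estimateDisp, then glmQLFit and glmQLFTest), with group means only and Benjamini-Hochberg adjustment over 7518 genes. SE was derived from the unshrunken log2 fold change and the F statistic (their quotient, with the root of F). CPM uses TMM-scaled totals, SD is over libraries, and counting intervals are exact at 95% and cover counting error only. Replicate pairs differed beyond sampling noise (chi-square per degree of freedom 2.67 to 14.62), so each library counted as 1 sample. BMDM_T and BMDM_H libraries of equal number shared their deviation from the group mean (r = 0.22, 0.24, 0.13 and 0.13, each over the limit of 0.1), so the numbers were treated as pairs in an alternative fit with a block. For TAM and BMDM_T r was 0.02, -0.03 and 0.08. The other alternatives were DESeq2 1.42.0, limma-voom 3.58.1, other scalings, no filter, thinning, only the 2 groups compared, and libraries left out. The fit was tested on simulated data in which only a small set of genes differed between groups. That setting is unlike the TAM comparisons, where most genes were called, so the simulation does not speak to them.

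Values of 2 genes of the lists are not reported here by name. Members and lists were chosen with earlier results of these data known. Named genes were the 6 members, up to 4 called genes per pathway list and comparison with the smallest p, marker genes, and the 3 genes most like each member. Other list genes named (Ccr1, Cxcr4, C5ar1, Fpr1, Fpr2, Rac1, Gnai2, Gp9 and the like) and the neighbors were chosen after their values were seen.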

Additional observations from a re-analysis of the deposited data

Results flagged for a closer look

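Among the 6 genes at any level, and other pathway genes with a group mean of at least 10 CPM, 81 gene and group combinations of 4 libraries were checked for a library far from the rest. Of these 6 stood out, and chance gives about 1 in 20. Ppbp in BMDM_T replicate 2 had 18.49 CPM, against 0 to 2.31 CPM in the other 3 libraries. Ccr1 in BMDM_H replicate 1 had 103.5 CPM, against 63.5 to 65.1 CPM. Cx3cr1 in BMDM_H replicate 2 had 25.74 CPM, against 36.4 to 38.2 CPM. Gnb1 in BMDM_H replicate 2 had 76.41 CPM, against 61.4 to 62.9 CPM. In BMDM_H replicate 4, the library with the lowest total, Rgs19 had 218.6 CPM (others 364.5 to 390.9) and Myo1f 364.3 CPM (others 515.1 to 528.4).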

How the results depend on the processing

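Over 359 alternative values for the 6 genes, 343 kept their direction and side of the threshold, 16 lost the call and 0 reversed. Cxcr2, Prok2 and Ccr2 in BMDM_T against BMDM_H, and Ccl7, Cxcl2, Cxcr2 and Prok2 in both TAM comparisons, were called in all 21. Thinning each library to 387940 counts gave 73 calls for BMDM_T against BMDM_H (362 in full), 1897 for TAM against BMDM_T (4426) and 1764 for TAM against BMDM_H (4230). BMDM_T against BMDM_H gave 179 calls without BMDM_H replicates 3 and 4, 175 without both replicates 2 (an alternative chosen after seeing the data), and 238 to 409 with 1 library left out, the lowest without BMDM_H replicate 2. After thinning, Ccr2 had a log2 fold change of 0.65 against BMDM_T (adjusted p = 0.137) and -0.76 against BMDM_H (0.0735). Without both replicates 2, Ccr2 in TAM against BMDM_T had 0.38 (adjusted p = 0.0906), and with 1 library left out 0.39 to 0.59. For Ppbp in TAM against BMDM_T, DESeq2 gave -3.27, limma-voom -1.68, the fit without BMDM_H replicates 3 and 4 -3.25 (adjusted p = 0.0529), and leaving out 1 library -3.73 to -2.83. Against BMDM_H, DESeq2 gave -3.86 and limma-voom -2.57. The cause of these changes was not tested, apart from the fewer counts that thinning leaves. Scaling by totals moved Ccr2 in TAM from 160 to 167 CPM. With the replicate block, BMDM_T against BMDM_H gave 468 calls, and Ccr2 -1.12, Cxcr2 1.48 and Prok2 3.92. The block changed no call of the 6 genes. Ppbp had no value after thinning, without either replicate 2 or BMDM_H replicate 3, or with only the 2 groups fitted, and Ccl7 had none for marrow in that last fit. Library totals of 387940 to 556565 in BMDM_H replicates 3 and 4 limit what low marrow genes such as Ccl7 and Ppbp can show.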

Other observations

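Genes that hold cells in the marrow were described from a list of 5, of which 4 were tested. Vcam1, an adhesion molecule of marrow macrophages and stroma, fell in BMDM_T against BMDM_H from 29.3 to 8.17 CPM (log2 fold change -1.84 ± 0.31 SE, adjusted p = 0.000957 in edgeR's quasi-likelihood test), and 3 did not pass. BMDM_T libraries had 6.46, 9.25, 11.54 and 5.41 CPM, and BMDM_H libraries 24.7, 34.6, 24.2 and 33.8 CPM, without overlap. Macrophage markers moved with it: 4 of 9 fell (C1qa by 1.71, C1qb by 1.46, C1qc by 1.25 and Adgre1 by 1.12 on the log2 scale), Trem2 rose, and their sum was 1946 to 2444 CPM in BMDM_T and 2589 to 3547 CPM in BMDM_H. Of all genes tested 2.00% were called lower in this comparison. The part of macrophages in the Vcam1 change was not tested. After thinning, the adjusted p of Vcam1 was 0.685. Cxcr4, the receptor that retains neutrophils, averaged 192 CPM in BMDM_T, beside 157 CPM in BMDM_H (adjusted p = 0.586). In TAM against BMDM_T 2 of the 4 rose, 1 fell and 1 did not pass, where 30.1% of all genes rose and 28.7% fell. Those that rose were the scavenging receptor gene Ackr3 (by 2.99 ± 0.53) and Vcam1 (by 2.15 ± 0.29, to 36.0 CPM).

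Rufy4, which starts 28.4 kb before Cxcr2 on the same strand, followed it in all 3 groups. It had 30 counts over BMDM_H, 224 over BMDM_T (log2 fold change 2.67 ± 0.37, adjusted p = 0.000178) and 0 in TAM, where it was at least 138-fold lower than in BMDM_T with TAM set to 3 counts in total. This gene was chosen after its values were seen.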
